A study of Mus musculus with 9 samples.

Results

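The transcripts of 10 nuclear genes that transcribe, replicate and look after the mitochondrial genome were followed over 24 h. The cells were MyC-CaP, treated with recombinant asporin at 100 ng/mL. The genes were Polrmt, Tfam, Tfb1m, Tfb2m, Tefm, Lrpprc, Slirp, Polg, Twnk and Pnpt1. They were chosen by name from their known function, and all 10 were found among the 15384 protein-coding genes of the count table. At 24 h, 7 of the 10 were lower than at time 0 at an adjusted p of 0.05 or less, as were 36.5% of all genes tested, and 2 of the 7, Twnk (0.468-fold) and Tefm (0.614-fold), by at least 1.5-fold, as were 16.8% of all genes. Tfb1m (1.76-fold) and Pnpt1 (1.44-fold) were higher, as were 34.4% of all genes. The fall of Polg, one of the 7, turned to a rise with offsets for transcript length and GC content. Over the same hours the counts on the 13 mRNAs encoded by mtDNA fell from 2.66% to 0.16% of all counts. Most of those counts lay on the more abundant of the 13. This fall is why the set was examined.

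Mammalian mtDNA is a small circle present in many copies per cell. Its genes for respiratory chain subunits, ribosomal RNAs and transfer RNAs are transcribed from promoters in the control region as long polycistronic RNAs, which are then cut, polyadenylated and either stabilised or degraded. Transcription needs the polymerase POLRMT, the packaging and promoter-bending protein TFAM, the promoter-melting factor TFB2M and the elongation factor TEFM. LRPPRC and SLIRP bind the processed mRNAs and hold them stable, polynucleotide phosphorylase (PNPT1) degrades mitochondrial RNA, and the polymerase gamma catalytic subunit (POLG) and the helicase Twinkle (TWNK) copy the DNA. All of these proteins are encoded in the nucleus and imported.

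MyC-CaP is a cell line from a prostate tumour of a mouse carrying a MYC transgene. Serum- and calcium-starved wells received 100 ng/mL recombinant asporin (ASPN), a secreted stromal proteoglycan, and polyadenylated RNA was sequenced at 0 h, 12 h and 24 h with 3 biological replicates each. The time 0 libraries carry the same ASPN-treated label as the later ones. No buffer-treated wells at 12 h or 24 h were analysed here, so ASPN and the hours spent in starvation medium cannot be told apart in any comparison.

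Library totals ranged from 41881191 to 52993821 counts, and 3 counts corresponded to between 0.0566 and 0.0716 CPM, the unit in which counts are set relative to the library total. Levels are given as CPM scaled by the trimmed mean of M values (TMM), with factors of 1.04 to 1.07 at 0 h and 12 h and 0.899 to 0.914 at 24 h. Differences were tested with the edgeR quasi-likelihood test, with Benjamini-Hochberg adjustment over all genes tested, and a gene was called where its adjusted p was at most 0.05 and its change at least 1.5-fold. The epithelial label rested on few markers. Krt8 and Hoxb13 were detected in every library, whereas Krt18, Epcam and Cdh1 were at or near 0. At 24 h against time 0, Krt8 (log2 fold change 0.585, adjusted p = 4.8e-05) and Hoxb13 (0.43, adjusted p = 4.2e-06) were higher. In the same list 1 gene was lower at the adjusted p. Of the fibroblast markers 3 of 6 were in the table, with summed levels of 9.09 to 14.1 CPM that were mostly Pdgfra (log2 fold change -0.51 at 24 h against time 0), while Dcn of the same list was called higher (log2 fold change 1.20, adjusted p = 0.043) on 7 to 11 counts per library at time 0 and 9 to 29 at 24 h. The 2 leukocyte markers in the table stayed at or below 0.0229 CPM, and the 3 endothelial markers at or below 0.183 CPM. Whether the shifts in these markers bear on the factors was not tested.

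The promoters of 4 factors are shown, chosen after their values were seen because Polrmt and Twnk fell and Tfb1m and Pnpt1 rose at 24 h. They lie just before the RefSeq transcription start on build GRCm38.p6, with bases already inside a transcript left out. Capitals mark matches, on either strand, to the NRF-1 motif GCGCATGC or the GABP/ETS motif CCGGAAG, whose factors are classical regulators of nuclear genes for mitochondrial proteins.
Polrmt, chr10:79746582-79746831, minus strand: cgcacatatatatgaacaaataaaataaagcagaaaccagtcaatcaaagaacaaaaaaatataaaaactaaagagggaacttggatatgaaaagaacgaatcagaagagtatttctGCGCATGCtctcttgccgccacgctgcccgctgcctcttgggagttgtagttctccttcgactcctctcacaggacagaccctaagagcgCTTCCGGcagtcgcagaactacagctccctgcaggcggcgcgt
Twnk, chr19:45006443-45006557, plus strand, the stretch between its second start and Mrpl43: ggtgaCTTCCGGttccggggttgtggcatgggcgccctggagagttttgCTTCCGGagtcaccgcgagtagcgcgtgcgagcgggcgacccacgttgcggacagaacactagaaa
Tfb1m, chr17:3557782-3558005, minus strand: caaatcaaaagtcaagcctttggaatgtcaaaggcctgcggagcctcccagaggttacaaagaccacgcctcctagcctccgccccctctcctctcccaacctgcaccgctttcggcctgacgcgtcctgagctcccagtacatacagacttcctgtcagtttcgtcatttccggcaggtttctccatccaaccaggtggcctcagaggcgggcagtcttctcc
Pnpt1, chr11:29130494-29130743, plus strand: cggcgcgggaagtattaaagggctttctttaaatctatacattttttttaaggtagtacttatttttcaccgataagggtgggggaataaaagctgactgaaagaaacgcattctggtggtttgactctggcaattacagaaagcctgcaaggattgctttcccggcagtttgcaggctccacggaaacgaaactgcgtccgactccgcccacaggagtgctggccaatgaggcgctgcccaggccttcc
The NRF-1 match of Polrmt spans positions -133 to -126 and its GABP/ETS match -43 to -37, counted from the start site. Twnk held a pair of GABP/ETS matches in front of its second start, and Tfb1m and Pnpt1 held neither motif. All 10 factors had a RefSeq promoter, and over the full 250 bases GABP/ETS letters were found in 6 of them (Polg, Polrmt, Slirp, Tefm, Tfam and Twnk). The same letters occurred in 11.7% of 15163 promoters of genes in the table. The NRF-1 letters were found in Polrmt alone, against 3.73% of all promoters. The E-box CACGTG was found in no factor (7.63% of promoters) and the YY1 motif AAGATGGC in Slirp alone (1.76%). None of the matches overlapped another, and the letters by themselves do not show that a factor binds.

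The mitochondrially encoded mRNAs set the frame for the factors. Counts on the 13 mRNAs made up 2.67%, 2.6% and 2.71% of the time 0 libraries, 2.85%, 2.77% and 2.63% of the 12 h libraries, and 0.113%, 0.163% and 0.203% of the 24 h libraries. The shares at 0 h and 12 h overlapped, and every 24 h library lay far below them. They were carried by the abundant mRNAs and are not the level of each of the 13. In time 0 replicate 1, mt-Co1 held 486000 of 1238319 mitochondrial counts. Over the time 0 libraries mt-Nd3 held 6 to 11, mt-Nd4l 17 to 21 and mt-Co2 176 to 230 counts. The log2 ratio of the mean shares was 0.05 at 12 h against time 0 (two-sided exact permutation p = 0.3) and -4.06 at 24 h against time 0 (exact permutation p = 0.1, the smallest that 3 libraries against 3 allow).

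Gene by gene, none of the 13 mRNAs had an adjusted p of 0.05 or less at 12 h, where the median log2 fold change was 0.06. At 24 h, 12 had enough counts to be tested, 11 were called lower, and the median was -4.03. Among those called, mt-Co3 (log2 fold change -4.43, adjusted p = 0.043) lost its call when any 24 h library was left out (adjusted p = 0.13). The steepest fall among those called was that of mt-Nd2, a complex I subunit, from 1570, 1510 and 1590 CPM at time 0 to 19.1, 26.8 and 31.1 CPM (log2 fold change -5.91, SE 0.19). The shallowest was that of mt-Nd4l (log2 fold change -2.54), which rested on 17 to 21 counts per library at time 0. Among the abundant mRNAs, mt-Nd6, the only one encoded on the light strand, changed least, although without a stated strand setting reads of the opposite transcript may be among its counts. It read 1150, 1060 and 1110 CPM at time 0 and 156, 163 and 174 CPM at 24 h (log2 fold change -2.75, SE 0.05). The exception to the calls was mt-Atp6, with a fitted log2 fold change of -6.45 and an adjusted p of 0.055, because 1 library at time 0 held 3441 counts where the other two held 200 and 188. It was called under 7 of the 11 alternatives that could test it. Without that library its log2 fold change was -3.89 (adjusted p = 3.9e-09, edgeR). In a poly(A)-selected library these counts follow polyadenylated mitochondrial RNA, so fewer molecules and shorter tails cannot be told apart. In bulk RNA the same holds, here and below, for fewer cells with a transcript and less of it per cell.

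**Figure D1:**
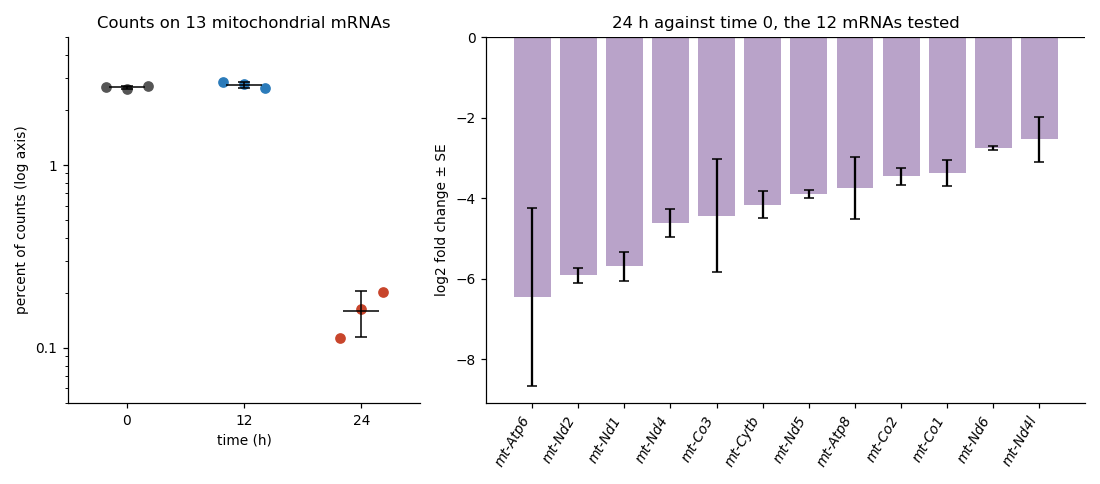
Counts on the 13 mitochondrially encoded mRNAs. Left, the percent of each library's counts on a log axis against time, with points for libraries and bars for the mean ± SD (n = 3): the 24 h libraries sit between 0.113% and 0.203%, all below the others. Right, the log2 fold change ± SE at 24 h against time 0 of the 12 mRNAs with enough counts to be tested, from mt-Atp6 at -6.45 to mt-Nd4l at -2.54.

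Polrmt encodes the single-subunit RNA polymerase of mitochondria (ENSMUSG00000020329.12, chr10:79736123-79746581, minus strand, GRCm38). It was at 37.0, 38.1 and 37.3 CPM at time 0, 32.8, 32.7 and 32.1 CPM at 12 h, and 25.2, 26.8 and 28.6 CPM at 24 h. The 3 times did not overlap, and each later group lay below the one before. Polrmt was the only factor with an adjusted p of 0.05 or less at 12 h, when mitochondrial mRNAs had not moved. It was then 0.872-fold of time 0 (log2 fold change -0.20, SE 0.045, adjusted p = 0.0038), which is short of the 1.5-fold required for a call. Lower at that adjusted p were 3.87% of all genes tested. At 24 h it was 0.721-fold of time 0 (log2 fold change -0.47, SE 0.059, adjusted p = 3.2e-06). Polrmt has the most GC-rich transcript of the set (60.5% GC), and with offsets for transcript length and GC content its log2 change from time 0 to 24 h shrank to -0.19 (adjusted p = 0.0068). From 12 h to 24 h the same offsets moved it from -0.25 to 0.01 (adjusted p = 0.93).

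Tfam encodes the HMG-box protein that coats mtDNA into nucleoids and bends its promoters (chr10:71225464-71238280, minus strand). Its levels were 34.2, 34.6 and 34.7 CPM at time 0, 33.7, 35.4 and 34.9 CPM at 12 h, and 30.2, 28.4 and 29.6 CPM at 24 h. The first 2 times overlapped and all 24 h libraries were lower, by an amount small in fold (0.855-fold, log2 fold change -0.23, SE 0.054, adjusted p = 0.0016). Tfam thus changed far less than the mRNAs of the genome its protein packages.

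Tfb2m and Tfb1m encode related proteins with different tasks: TFB2M opens the promoter for POLRMT, and TFB1M methylates adenines of the small ribosomal RNA. They moved in opposite directions. Tfb2m (chr1:179528055-179546267, minus strand) was at 22.2, 22.4 and 20.3 CPM at time 0, 21.9, 20.6 and 20.6 CPM at 12 h, and 16.2, 14.0 and 15.0 CPM at 24 h. It fell to 0.698-fold at 24 h (log2 fold change -0.52, SE 0.076, adjusted p = 1.8e-05), under the size for a call. With the length and GC offsets its log2 fold change was -0.67, and it was called lower under 4 of the 13 alternatives. Tfb1m (chr17:3519256-3557781, minus strand) was at 8.68, 9.01 and 8.08 CPM at time 0, 9.60, 9.99 and 8.76 CPM at 12 h, and 15.5, 14.5 and 15.1 CPM at 24 h. It was called higher (1.76-fold, log2 fold change 0.82, SE 0.083, adjusted p = 3.6e-07), and no 24 h library overlapped an earlier one. Its annotated exons share 142 bases (3.93%) with Tiam2 on the other strand. Tiam2 was called higher at both times, 2.03-fold at 12 h and 1.91-fold at 24 h (log2 fold change 0.94, adjusted p = 4.9e-07), and Tfb1m had a log2 fold change of 0.14 at 12 h (adjusted p = 0.39). The part of the shared bases in the Tfb1m counts was not tested.

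The ratio of the pair within a library does not depend on scaling between libraries. Tfb2m over Tfb1m, in counts per kb of exon, was 3.29, 3.21 and 3.23 at time 0, 2.93, 2.65 and 3.03 at 12 h, and 1.35, 1.24 and 1.28 at 24 h. The ratio was 3.24 ± 0.044 (SD, n = 3) at time 0 and 1.29 ± 0.056 (SD, n = 3) at 24 h. The log2 difference was -1.33 (two-sided exact permutation p = 0.1, the smallest possible with 3 against 3), for a pair chosen after its values were seen.

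Tefm encodes the elongation factor that lets POLRMT make long transcripts past the point where replication primers end (chr11:80136678-80142175, minus strand). It was at 11.1, 10.7 and 10.2 CPM at time 0, 9.93, 10.7 and 10.6 CPM at 12 h, and 6.18, 6.69 and 6.65 CPM at 24 h. The earlier times overlapped and the 24 h libraries lay well under both, at 0.614-fold of time 0. Tefm was called lower (log2 fold change -0.70, SE 0.092, adjusted p = 5.3e-06) and remained so under all 13 alternative settings and with each library left out.

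Lrpprc, which encodes the RNA-binding protein that stabilises mitochondrial mRNAs and supports their polyadenylation, had the highest level per kb of exon at time 0 (chr17:84705247-84790789, minus strand). Its levels were 129, 129 and 133 CPM at time 0, 121, 128 and 123 CPM at 12 h, and 111, 104 and 99.8 CPM at 24 h. It was lower at 24 h by a modest step (0.807-fold, log2 fold change -0.31, SE 0.046, adjusted p = 2.0e-05). At 12 h its libraries also lay below those of time 0 without overlap, but the adjusted p was 0.21.

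Slirp, which encodes the small partner of LRPPRC, could not be read with the same confidence (chr12:87443896-87452206, plus strand). Of its 3104 annotated exon bases, 2914 (93.9%) overlap exons of Snw1 on the other strand, and the sources used here do not state whether counting used strand. Only 102, 114 and 104 counts were assigned to it at time 0, 78, 82 and 76 at 12 h, and 100, 117 and 145 at 24 h. Its log2 fold change at 24 h was 0.30 (SE 0.17, adjusted p = 0.13) and the groups overlapped. Against 12 h it was called higher (1.55-fold, adjusted p = 0.0036), a call lost without 24 h replicate 3 (log2 fold change 0.51). Snw1, a splicing factor gene, stayed between 64.0 and 71.1 CPM in all 9 libraries.

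Pnpt1 encodes polynucleotide phosphorylase, an exoribonuclease that with the helicase SUPV3L1 degrades RNA in the mitochondrial matrix (chr11:29130744-29161828, plus strand). It was at 39.4, 42.7 and 41.5 CPM at time 0, 43.7, 39.8 and 42.1 CPM at 12 h, and 63.8, 55.4 and 58.1 CPM at 24 h. All 24 h libraries lay above all earlier ones. The rise at 24 h was 1.44-fold (log2 fold change 0.53, SE 0.058, adjusted p = 9.0e-07), just short of a call. Pnpt1 had the lowest GC content of the set (39.6%), and its log2 fold change was 0.35 with the length and GC offsets. The ratio of Polrmt to Pnpt1 per kb, the gene that makes mitochondrial RNA over one that degrades it, was 0.683 ± 0.019 at time 0, 0.584 ± 0.028 at 12 h and 0.343 ± 0.04 at 24 h (SD, n = 3 each). This pair too was chosen after its values were seen, and its members stand at the ends of the GC range of the set. With the offsets their log2 changes were -0.19 and 0.35.

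Polg encodes the catalytic subunit of the mtDNA polymerase (chr7:79446231-79466362, minus strand). It was at 76.2, 80.9 and 80.2 CPM at time 0, 79.2, 80.0 and 83.1 CPM at 12 h, and 62.1, 74.1 and 66.2 CPM at 24 h. Every 24 h library was below the earlier ones, at 0.857-fold of time 0 (log2 fold change -0.22, SE 0.059, adjusted p = 0.0033). Its direction depended on the processing. Offsets for length and GC content together gave 0.16 (adjusted p = 0.013), offsets for GC alone -0.13 (adjusted p = 0.04) and offsets for length alone -0.10 (adjusted p = 0.17). Polg has 10742 annotated exon bases, of which 921 (8.57%) are shared with Fanci on the other strand.

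Twnk encodes Twinkle, the hexameric helicase that unwinds mtDNA ahead of the polymerase (ENSMUSG00000025209.5, chr19:45005663-45012762, plus strand). It showed the largest change of the 10 at 24 h. It was at 59.3, 58.2 and 54.9 CPM at time 0, 54.3, 56.4 and 58.8 CPM at 12 h, and 26.0, 27.6 and 26.6 CPM at 24 h. The 0 h and 12 h libraries overlapped and the 24 h libraries lay well below all of them. Twnk was called lower at 24 h (0.468-fold, log2 fold change -1.10, SE 0.054, adjusted p = 1.1e-10), and its log2 fold change lay between -1.32 and -0.99 under the 13 alternatives.

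Twnk shares 507 exon bases (12.6%) with Mrpl43, a mitochondrial ribosomal protein gene read from the other strand of the same promoter region. Mrpl43 did not follow it. Its level was 22.1 ± 1.1 CPM at time 0 and 26.6 ± 1.0 CPM at 24 h (SD, n = 3; log2 fold change 0.27, adjusted p = 0.0012), a difference that passed the adjusted p under 9 of the 13 alternatives, with log2 fold changes from 0.05 to 0.35. Per kb and within each library, Mrpl43 over Twnk was 1.04, 0.980 and 1.03 at time 0, 0.948, 0.874 and 0.939 at 12 h, and 2.65, 2.66 and 2.58 at 24 h. Thus neighbours whose starts face away from the stretch printed above moved apart between 12 h and 24 h (log2 difference of the ratio 1.52, two-sided exact permutation p = 0.1, the smallest possible).

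**Figure D2:**
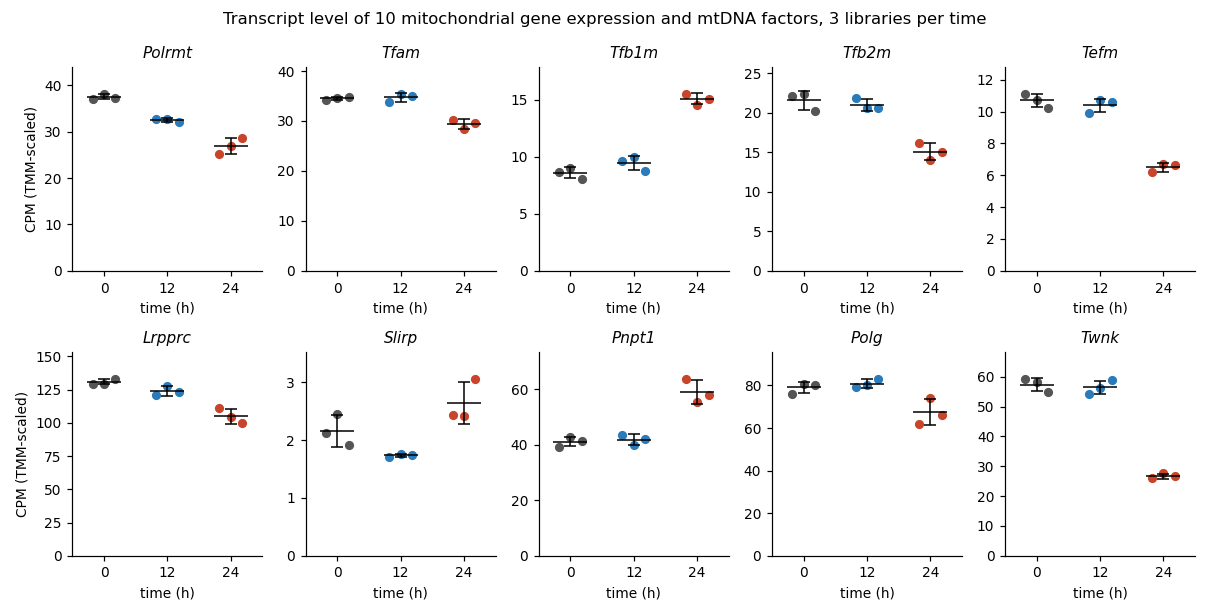
TMM-scaled CPM of each of the 10 factors against time, one panel per gene with its own axis from 0. Points are libraries and bars the mean ± SD (n = 3 per time). Twnk, Tefm and Tfb2m sit lower at 24 h than at either earlier time, Tfb1m and Pnpt1 sit higher, and Polrmt steps down at both times.

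Counted over the set, 0 of 10 factors were called at 12 h against time 0, where 1.52% of all genes tested were called higher and 0.0964% lower. Besides Polrmt, no factor had an adjusted p of 0.05 or less there, the values running from 0.21 for Lrpprc to 0.93 for Tfam. Without overlap below time 0 were 3 of the 10 (Polrmt, Lrpprc and Slirp), against 13.6% of all genes.

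At 24 h against time 0, 1 of 10 factors was called higher (Tfb1m) and 2 lower (Twnk and Tefm), where 12.0% of all genes were called higher and 16.8% lower. With the adjusted p alone, 2 were higher and 7 lower, where 34.4% of all genes were higher and 36.5% lower. The share of factors called was thus close to that of the table as a whole, and 70% of them lower at the adjusted p stands beside 36.5% of all genes, a description of 10 chosen genes and no test. Their median log2 fold change was -0.27, against -0.02 for all genes tested. From 12 h to 24 h, 2 factors were called higher (Tfb1m and Slirp) and 2 lower (Twnk and Tefm), where 10.4% of all genes were called higher and 15.3% lower, with a median log2 fold change of -0.23. Of those calls, that of Tfb1m held under 9 and that of Slirp under 8 of the 13 alternatives. This comparison shares its 24 h libraries with the one before, and the comparisons with time 0 share those of time 0.

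**Figure D3:**
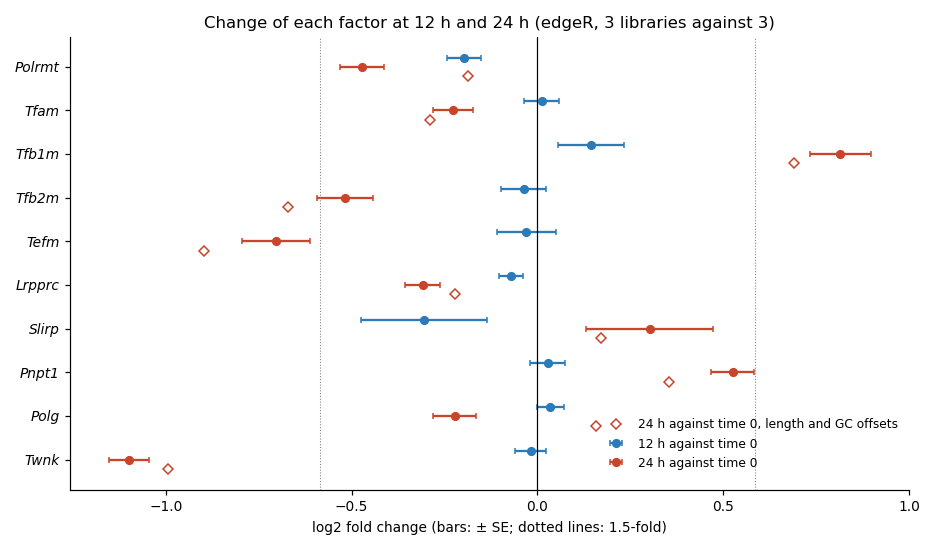
Log2 fold change of each factor at 12 h (blue) and 24 h (red) against time 0, with bars for the SE and dotted lines at 1.5-fold. Open diamonds give the 24 h value with offsets for transcript length and GC content. Polrmt alone among the 12 h values had an adjusted p of 0.05 or less, and the diamond of Polg lies on the other side of 0 from its filled point.

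GC content moved with the 24 h change across the whole table, so it was set beside the factors. Genes were put in 5 equal groups by GC content. From the lowest to the highest group, the median log2 fold change of all genes tested was 0.15, 0.03, -0.07, -0.09 and -0.12. Across the 11440 genes with a GC value, Spearman's rho between the log2 fold change and GC content was -0.16, a description in which all genes share the same libraries. Among the 10 factors rho was -0.53, so the factors with more GC also tended to be those that fell. Tfb2m (42.5% GC) and Tfb1m (42.6% GC) have nearly equal GC content and opposite changes, and Twnk (53.2%) and Polg (52.7%) stood at -1.10 and -0.22.

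**Figure D4:**
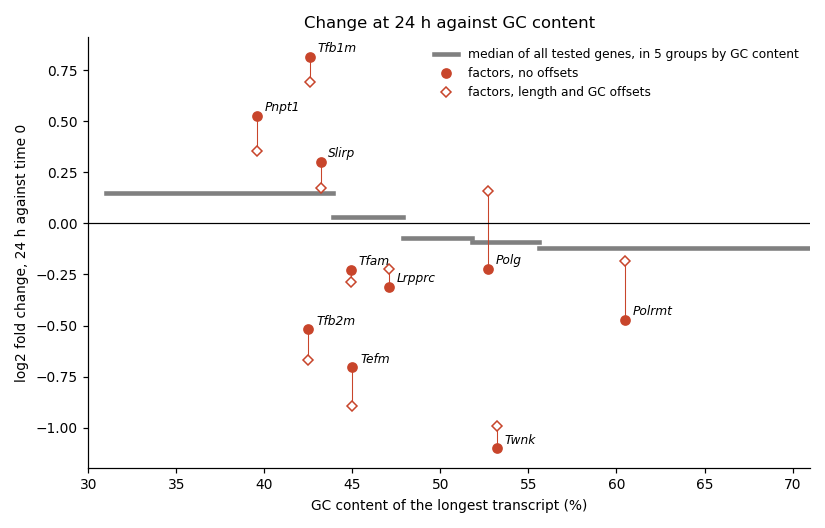
Log2 fold change at 24 h against time 0 (vertical) against GC content of the longest transcript (horizontal). Filled points are the 10 factors without offsets, open diamonds the same genes with offsets for length and GC content, and grey bars the median of all genes tested in each of 5 groups by GC content, which runs from 0.15 to -0.12. Twnk at -1.10 and Tfb1m at 0.82 lie far from the grey bars, and Polg crosses 0.

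The order of levels changed with these shifts. In CPM per kb of exon, Lrpprc (15.4), Twnk (14.3) and Pnpt1 (11.7) stood first at time 0, followed by Polrmt (7.99), Tfam (7.77), Tfb2m (7.72), Polg (7.36), Tefm (6.78), Tfb1m (2.38) and Slirp (0.695). Of neighbours in that order, Tfam with Tfb2m and Tfb2m with Polg overlapped over their libraries. At 24 h Pnpt1 led (16.8), ahead of Lrpprc (12.4). Twnk (6.66), Tfam (6.62), Polg (6.28), Polrmt (5.74) and Tfb2m (5.37) then followed with each neighbour overlapping the next, and Tfb1m (4.17) and Tefm (4.14) overlapped as well. Tfb1m, which lay below Tefm in every library at time 0, overlapped it at 24 h. The order between genes depends on the length used, here all annotated exon bases. For Tfb1m these were 3609 against 2419 in its longest transcript, and for Tefm 1570 against 1309. An order by longest transcript was not tested.

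**Figure D5:**
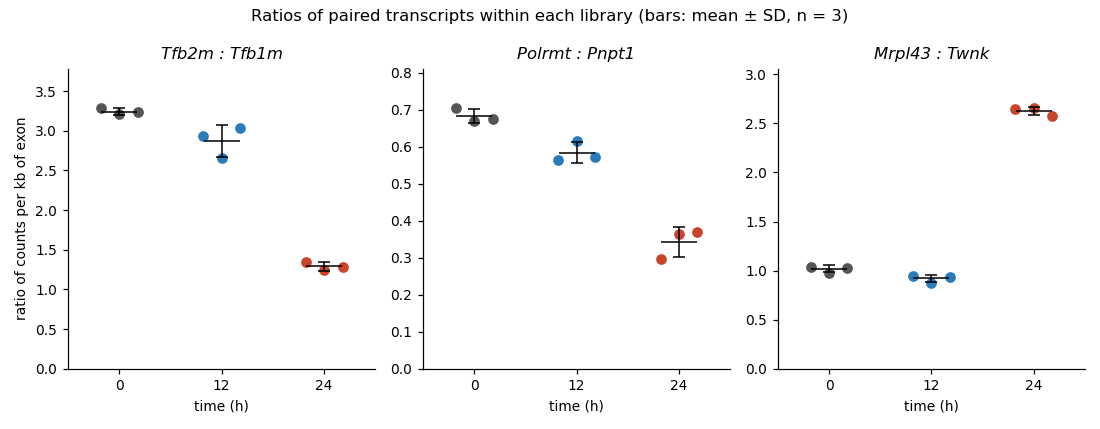
Ratios of counts per kb of exon within each library for Tfb2m over Tfb1m, Polrmt over Pnpt1 and Mrpl43 over Twnk, against time. Points are libraries and bars the mean ± SD (n = 3). The first falls from 3.24 to 1.29 and the second from 0.683 to 0.343, and the third rises from 1.02 to 2.63, with no overlap between 24 h and either earlier time.

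Other genes of the same system were counted from lists of known function. None of their members was called at 12 h, beside 1.52% of all genes called higher and 0.0964% lower. With the adjusted p alone Slc25a33 was lower (log2 fold change -0.24, adjusted p = 0.0078) and Hsd17b10 higher (0.16, adjusted p = 0.002). All genes stood at 3.87% lower and 7.17% higher by that rule. Slc25a33 passed in 5 of 6 fits with a library left out (adjusted p up to 0.052). Among 12 genes that cut, polyadenylate and degrade mitochondrial RNA, the group to which Pnpt1 is closest, 8 had an adjusted p of 0.05 or less at 24 h and all 8 were higher (median log2 fold change of the 12, 0.20), beside 34.4% of all genes higher and 36.5% lower. Only Mtpap, the mitochondrial poly(A) polymerase gene, was called, beside 12.0% of all genes called higher and 16.8% lower. It was at 24.4, 21.7 and 23.9 CPM at time 0 and 38.5, 36.8 and 39.2 CPM at 24 h (log2 fold change 0.72). Its call held under 12 of the 13 alternatives, being lost with total-count scaling (0.49). Next in size was Hsd17b10 (log2 fold change 0.565, adjusted p = 1.0e-08), called under 2 of the 13 alternatives. Supv3l1, the helicase partner of PNPT1, had a log2 fold change of 0.42 (adjusted p = 5.2e-06), and Pde12, which removes poly(A) tails, 0.45 (adjusted p = 5.5e-06).

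Genes whose products work with POLG and Twinkle mostly had log2 fold changes below 0. Of 10 genes of mtDNA replication and repair, 9 were below 0 and 1 above. Their median was -0.19, against -0.02 for all genes tested. Among these 10, 1 was called higher and 1 lower, and at the adjusted p 1 was higher and 4 were lower. The counts called and the 4 lower stand near the shares of all genes (12.0% called higher, 16.8% called lower and 36.5% lower at the adjusted p). Higher at the adjusted p were 34.4% of all genes. Lig3, the only DNA ligase of mitochondria, fell from 63.7, 64.5 and 62.8 CPM to 35.7, 34.8 and 34.0 CPM (log2 fold change -0.86). Primpol, a primase that restarts stalled forks in nucleus and mitochondria, rose from 7.31 to 13.7 CPM in the mean (log2 fold change 0.91). Polg2, the accessory subunit of the polymerase, changed by -0.03 (adjusted p = 0.84). Of 8 genes that supply mitochondrial nucleotides, Tk2, the mitochondrial thymidine kinase (log2 fold change -0.87), and Slc25a33, a pyrimidine nucleotide carrier (-0.65), were called lower, and Slc25a36, a related carrier, higher (0.70). The call of Slc25a36 held under 9 of the 13 alternatives, and that of Slc25a33 under 12 and in 5 of 6 fits with a library left out, being lost without 0 h replicate 1 (-0.57).

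The remaining lists were mixed, and are to be read beside the 12.0% of all genes called higher and 16.8% called lower, and the 34.4% higher and 36.5% lower at the adjusted p alone. Of 6 genes of the MTERF family and other transcription genes, only Mterf1a, whose product binds a transcription termination site, was called (log2 fold change -1.14), on 40 to 62 counts per library at 24 h, and it has a close copy, Mterf1b (-0.43, adjusted p = 0.2), with which reads may be split. Of 7 genes of the FASTK family and RNA granules none was called, with Fastkd1 changing most (-0.49, adjusted p = 3.7e-04), and 1 was higher and 3 lower at the adjusted p. Of 6 nucleoid proteases and scaffold genes none was called and all 6 passed the adjusted p, 4 higher and 2 lower (median log2 fold change 0.21). Atad3a changed most (-0.40, adjusted p = 1.4e-06). Higher were Clpx (0.39), Phb2 (0.38), Lonp1, the protease that degrades TFAM (0.28), and Phb (0.13).

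Among the nuclear regulators of these genes, 8 of 9 were in the table (not Ppargc1b), and 2 were called, both lower, beside 16.8% of all genes. At the adjusted p alone 2 were higher and 2 lower, beside 34.4% and 36.5% of all genes. Pprc1, a coactivator of the PGC-1 family, fell from 105, 108 and 104 CPM at time 0, and 102, 103 and 107 CPM at 12 h, to 36.1, 34.9 and 37.0 CPM at 24 h (log2 fold change -1.55, SE 0.046, adjusted p = 7.5e-13). Ppargc1a, its best-known relative, fell from 22.8 to 13.8 CPM in the mean (log2 fold change -0.72). Of the DNA-binding factors whose motifs were searched, Nrf1 had a log2 fold change of 0.13 (adjusted p = 0.074) and Yy1 of -0.03 (adjusted p = 0.54). The third, Gabpa, stood at 0.38 (adjusted p = 6.0e-06). Esrra, another of the listed regulators, stood at 0.33 (adjusted p = 9.1e-05). Gabpa and Esrra were thus higher while both coactivators were lower.

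The genes whose pattern over the 9 libraries was most like that of Twnk were Cep97 and Aff1 (both Pearson r = 0.9989 of log2 CPM), Ehmt1 (0.9987), Mnt (0.9984) and Sec24c (0.9981). Such likeness was common, since 376 genes exceeded 0.99, and how far it rests on the step between 12 h and 24 h was not tested. None of the 5 belongs to the lists above.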

How the data were processed

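RNA from 9 MyC-CaP cultures was measured by paired-end sequencing of poly(A)-selected libraries, 3 at each of 0, 12 and 24 h. Per the labels and the study's methods, the authors trimmed reads with Cutadapt, aligned them with STAR to GRCm38.p6, checked them with FastQC 0.11.9 and counted them per gene with featureCounts on Gencode vM24. The strand setting is not given in the sources used here. The deposited values are raw counts per gene, without normalization, for 15384 protein-coding genes, and the filter that left only those genes is not stated. Without UMIs, PCR copies remain among the counts, so totals cover counting error only. Gene positions, exon lengths and GC content came from Gencode vM21 on GRCm38, in which 15374 gene IDs matched and 15242 had the same span.

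From the counts, edgeR 4.0.16 (R 4.3.3, limma 3.58.1) fitted the 2 groups of each comparison with TMM factors and the quasi-likelihood test, after its filter on low counts (11410, 11444 and 11394 genes tested at 12 h against time 0, 24 h against time 0 and 24 h against 12 h). The scripts were tested on simulated data. A call needed adjusted p of at most 0.05 and at least 1.5-fold, the thresholds of the study. DESeq2 1.42.0, other scalings and filters, a fit of all libraries, a replicate block and loess offsets for length and GC content were alternatives. The offsets for GC or for length alone were chosen after seeing the data. Motifs were matched on both strands of the 250 bases before each RefSeq start (GRCm38.p6). Within-library ratios were compared by exact permutation.

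The factors and lists were chosen with earlier results of these data known. All 10 factors are named, and in other lists up to 3 called genes with the largest change at 24 h, or the largest change where none was called. Other names and the ratios were chosen after values were seen. Among those names are mt-Nd6, Supv3l1, Pde12, Hsd17b10 at 24 h, Polg2, Lonp1, Clpx, Phb, Phb2, Esrra, the motif factors and overlapping genes. The methods describe wells plated in triplicate, so p-values measure the spread between such wells, which may be technical. Some of the luminal markers are not reported here.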

Additional observations from a re-analysis of the deposited data

How the results depend on the processing

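The counts of factors called were 0 at 12 h, 3 at 24 h against time 0 and 4 at 24 h against 12 h. They stayed within 1.5 times of these under all 13 alternatives and each library left out, except 5 with total-count scaling at 24 h against time 0 (Tfb2m and Polrmt added, both lower; Tfb2m was also called with each of the offsets that include GC) and 2 with GC offsets alone at 24 h against 12 h (Twnk and Tefm). At 24 h against 12 h a like total hid a change of direction. The main fit called 2 higher and 2 lower. Total-count scaling, and the length and GC offsets with or without block, called 0 higher and 3 lower. There Tfb1m and Slirp were lost and Tfb2m was gained. Total-count scaling shifts the median of all genes by -0.24 at 24 h against time 0 and by -0.22 against 12 h, and then 697 genes were called higher and 3001 lower, against 1370 and 1922 with TMM, and 485 and 2831 against 1184 and 1738 from 12 h. With the replicate block, 3 factors were again called at 24 h against time 0 and Twnk again changed by -1.10; same-numbered libraries correlated between -0.098 and 0.056, so the numbers do not pair the samples, and no factor's call was changed by the block, while mt-Atp6 at 24 h against time 0 passed with it (log2 fold change -6.24). Without a filter on low counts mt-Co3 was no longer called (adjusted p = 0.055).

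The median log2 fold change of the mitochondrial mRNAs at 24 h against time 0 (-4.03) was -4.26 with total-count scaling and with length and GC offsets, -4.29 with those offsets and the block and with length offsets alone, and -3.81 to -4.38 with 1 library left out, the extremes being without 24 h replicate 1 and 2. Against 12 h (-3.97) it was -4.20, -4.25 and -4.26 in that order, -4.19 with GC offsets alone, -4.22 with length offsets alone, and -3.72 to -4.19 with 1 library left out.

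Signs turned for Polg, to 0.16 at 24 h against time 0 with the length and GC offsets (with or without block) and to 0.13 and 0.12 against 12 h, and for Polrmt against 12 h, to 0.01 (0.006 and 0.005). With total-count scaling Nrf1 (-0.10) and Mterf4 (-0.007) turned at 24 h. The other turns were of genes whose main-fit values lay near 0. At 12 h Tfam reached -0.003 with upper-quartile factors and -0.009 with total counts, and with 1 library left out Tfam ranged from -0.004 to 0.03, Tefm from -0.06 to 0.001, Twnk from -0.052 to 0.008 and Pnpt1 from -0.006 to 0.064. At 24 h Snw1, at 0.03 in the main fit, was -0.191 with total counts (adjusted p = 0.0031). It was -0.081 with the length and GC offsets (with or without block), -0.088 with GC offsets alone and -0.003 to 0.097 with 1 library left out. The causes were not tested beyond what each setting changes. Depth limited Slirp most among the factors, with 76 to 145 counts per library.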

Other observations

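The mitochondrial counts held single-library jumps that no group explains. At time 0, mt-Atp6 had 200, 188 and 3441 counts, and mt-Co3 had 124, 855 and 150, in different replicates. At 12 h the same genes stood at 224, 186 and 185 and at 127, 122 and 114 counts. Without 0 h replicate 2, the log2 fold change of mt-Co3 at 24 h was -2.88 instead of -4.43.

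The mitochondrial mRNAs differed widely in counts at time 0, from 6 to 11 for mt-Nd3 to between 435630 and 530606 for mt-Co1. At 24 h mt-Nd3 had 0, 0 and 1 counts, and mt-Nd4l 1, 5 and 3. Levels were therefore compared between times for one gene and never between mitochondrial genes.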
